A study of Mus musculus with 2 samples.

Results

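The miRNAs of the miR-297, miR-466, miR-467 and miR-669 families were followed on 2 arrays of mononuclear cells from the mouse colonic lamina propria. The lamina propria is the tissue layer beneath the gut epithelium. Members were all probes whose name, or any name on a probe that lists several, begins with one of the 4 family names, which gave 71 of the 1900 mouse miRNA probes. These 71 probes carry 80 miRNA names, since 7 of them name several miRNAs that 1 probe cannot tell apart. One array held RNA from germ-free mice, which have no gut microbiota, and one held RNA from specific pathogen-free (SPF) mice, which carry one. Both groups were male Balb/c mice, with no other genotype or treatment in the labels, which give neither age nor the number of animals behind each RNA. With 1 array per group there is no replicate error between animals and no test, so all differences below describe these 2 arrays, and fewer cells of a type cannot be told apart from less RNA per cell.

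A miRNA precursor is a hairpin that is cut into a duplex, and either strand, named 5p or 3p after its arm of the hairpin, can be loaded into the silencing complex. Bases 2 to 8 of the loaded strand, the seed, choose the target mRNAs. Many precursors of these 4 families lie in tandem within an intron of Sfmbt2, a gene of a Polycomb group protein that is imprinted in the mouse placenta, and the miRNAs are best known from placenta, embryonic stem cells and early embryos. Their hairpins are rich in simple repeats, with runs of alternating U and G on one strand and of A and C on the other. In immune cells the families are less studied, although miR-466l has been described in macrophages as a regulator of the anti-inflammatory cytokine Il10.

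The printed sequences show repeats in members of miR-466, miR-467 and miR-669. No miR-297 strand, none named as a 5p arm of miR-467 and none from a precursor inside Sfmbt2 is among them. Repeats in those strands were therefore not examined. The RefSeq table (GRCm38.p6) matched 8 of the 80 names. They are printed 5′ to 3′ with the seed in capitals, first the 4 that are mostly A and C and then the 4 that are mostly U and G.
miR-466q: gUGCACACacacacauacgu
miR-467g: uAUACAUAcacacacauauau
miR-467f: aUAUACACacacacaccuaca
miR-466i-3p: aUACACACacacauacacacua
miR-466k: uGUGUGUGuacauguacauguga
miR-669n: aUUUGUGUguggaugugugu
miR-467h: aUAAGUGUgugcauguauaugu
miR-466j: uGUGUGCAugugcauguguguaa
No 2 of these 8 share a seed, so they form 8 seed groups of 1. The closest pairs, miR-467f with miR-466i-3p and miR-467f with miR-467g, differ by 5 single-base steps (substitutions, insertions or deletions). A search of each mature strand as printed found the 7-base motif GUGUGUG or ACACACA in 7 of the 8, the exception being miR-466j. Over all 1679 mature miRNAs in the table, these 7 included, the share was 0.953%. The longest run of strictly alternating bases was 12 in miR-467f and miR-466q and 7 in miR-467h and miR-466j, with a median of 3 over all mature miRNAs. The hairpin of Mir467h, shown because its mature strand, in capitals, lies within further repeats, reads as follows.
Mir467h: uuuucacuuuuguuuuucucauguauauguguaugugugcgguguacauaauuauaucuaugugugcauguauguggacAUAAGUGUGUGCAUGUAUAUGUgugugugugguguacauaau

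In GENCODE M21 (GRCm38), 71 of the 81 annotated precursors of the 4 families lie inside Sfmbt2 on its own strand, between 10466663 and 10518279 of chromosome 2. This stretch of 51.6 kb lies in the intron after exon 11 of transcript Sfmbt2-205 (10461473 to 10523944). It holds 29 precursors of miR-669, 23 of miR-466, 14 of miR-467 and 5 of miR-297. The other 10 lie elsewhere, and they include the precursors of all 8 miRNAs printed above. Mir466i (chr13:17747473-17747593) lies antisense within an intron of Cdk13, Mir467f (chr11:69635400-69635519) antisense within an intron of Fxr2, Mir467g (chr5:34732853-34732972) antisense within an intron of Grk4 and Mir669n (chr3:115979902-115979955) antisense within an intron of Slc30a7. Mir466k (chr3:85467377-85467498) is antisense within an intron of Gm37240. Mir466q (chr3:28419943-28420018) lies within an intron of Tnik on its strand. Mir466j (chr10:60960723-60960844) and Mir467h (chr9:115381819-115381939) overlap no other gene.

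Levels are net intensities, the deposited spot intensity minus the mean of the array's blank spots (128.5 for germ-free and 158.3 for SPF). In each pair of values the germ-free one comes first. SPF values are multiplied by 0.849, which equalises the medians of the miRNA probes detected on both arrays. Detection meant a net intensity above a floor of 2 SD of the blanks, which was 9.05 for germ-free and, before scaling, 10.7 for SPF. This floor is low, as 66.7% and 71.8% of 174 positions carrying no probe exceeded it, and counts with a stricter floor taken from those positions are given too. Probes bind with different strength, so intensities of different probes describe the array and do not rank the miRNAs by abundance. Probe sequences were not used here, and uptake of one repeat miRNA by the probe of another was not tested. Each miRNA probe has 1 spot. The spread within an array was therefore taken from 6 control probes with 8 spots each whose level lies in the range of the members. Their pooled SD was a net of 11.4 and, after scaling, 7.49, and it gives each member a technical SD on the log2 scale. The means of these 6 control probes differed between the arrays by -0.80 to 0.22 on the log2 scale. RNA of blood cells was present on both arrays, with miR-142a-3p, found throughout the blood lineages, at 3081 and 1534, the myeloid miRNA miR-223-3p at 622 and 1040 and the lymphocyte miRNA miR-150-5p at 18699 and 7552. The first and the last were lower and miR-223-3p was higher in SPF.

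Signals of all 4 families were weak. Of the 71 members, 62 passed the floor in the germ-free sample and 60 in the SPF sample. Both counts include 58 shared members, which leaves 4 detected in germ-free alone (5.63%, against 3.58% of all miRNA probes), 2 in SPF alone (2.82% against 2.11%) and 7 in neither (9.86% against 16.9%). The 58 are 81.7% of the members, against 77.4% of all miRNA probes, and with the stricter floor 38 members were above it on both arrays (53.5% against 54.8%). Together the 71 members held 0.510% and 0.455% of the net miRNA signal. The 58 shared members had median net intensities of 83.0 and 68.2, next to 84.6 on both for all shared probes, which reach 40203 in the germ-free sample. The 32 negative control spots had a median net of 22.8 and, before scaling, 21.2, and 31 and 32 members lay above the highest of them.

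**Figure D1:**
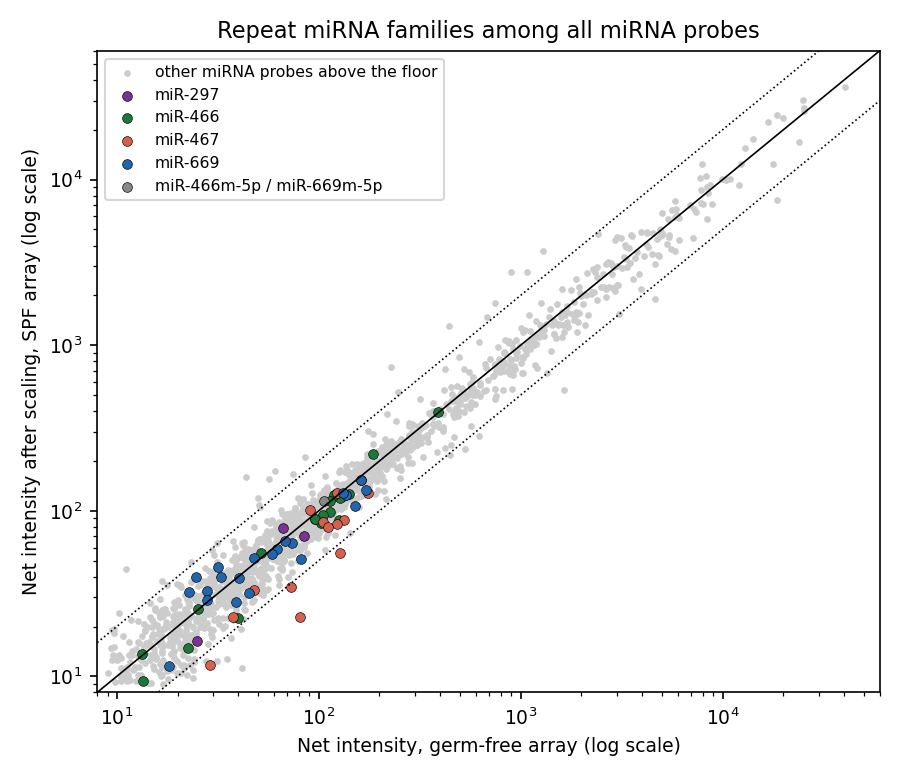
Net intensity on the germ-free array (x) against scaled net intensity on the SPF array (y), both on log axes, for miRNA probes above the floor on both arrays; coloured points are the 58 shared members, the solid line marks equal levels and dotted lines 2-fold differences. The members lie in the lower part of the range, and the 4 beyond the lower dotted line are all miR-467 5p probes.

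Log2 SPF over germ-free net intensity had a median of -0.12 over the 58 shared members (quartiles -0.52 and 0.04), against -0.06 over all 1471 shared probes. Of the 58, 40 were below 0 (69.0%), against a background of 57.6% of all shared probes. No member was at least 2-fold higher on the SPF array, where the background was 1.56%. At least 2-fold lower were 4 members, 6.90% of the 58, against a background of 1.43%, and these 4 were miR-467e-5p, miR-467d-5p, miR-467b-5p and miR-467c-5p. At a threshold of 1.5-fold, 11 members were lower (background 7.61%) and 1 was higher (background 4.62%). Within 2 technical SD of 0 lay 46 of the 58, while 11 lay lower by 2 technical SD or more (background 8.54%) and 1 higher (background 4.36%). Here the background is taken over the 1101 shared probes in the brightness range of the members, and the SD holds the spread within an array only. Without between-array scaling, which moves all probes alike, the median was 0.11 over the members and 0.18 over all shared probes, and 2 members were at least 2-fold lower (background 0.612%). With each spot's own local background subtracted, the median was 0.16 over the members and -0.04 over all shared probes, so the members then lay above the other probes and not below them. With no floor 2 members were at least 2-fold higher (background 3.9%), and 1 member was at least 3-fold lower with the floor (background 0.204%).

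The miR-466 family holds the probe of the highest intensity. miR-466i-5p, from the precursor within Cdk13, had a net intensity of 388 and 397, at the 78.5th and 79.5th percentile of the shared probes, a log2 difference of 0.03 (technical SD 0.05). Its other arm, miR-466i-3p, one of the A and C repeats printed above, was at 119 and 125, so both arms differed between the arrays by less than their technical SD (0.16 for 3p). Second came miR-466h-3p at 185 and 221, a log2 of 0.25 (technical SD 0.10), the 1 member higher by more than 2 technical SD. The probe shared by miR-466b-3p, miR-466c-3p and miR-466p-3p was at 132 and 123, miR-466f-3p at 161 and 154, and miR-466f with no arm named at 141 and 127. These 3 differed between the arrays by -0.09, -0.07 and -0.16, the first 2 within their technical SD and the third by little more than it (0.14). miR-466d-3p was at 127 and 88.1, a log2 of -0.52 (technical SD 0.18). Over the 20 shared miR-466 probes the median log2 was -0.10, with none at 2-fold. Of the 20, 13 were below 0 (65.0%, background 57.6%) and 7 above. The other miR-466 sequences printed above were miR-466q at 51.7 and 55.8, miR-466j at 95.5 and 88.9 and miR-466k at 22.7 and 14.8, each within its technical SD of no difference. With local background subtracted the family median was 0.15. miR-466i-3p (1.26) and miR-466h-3p (1.15) were then at least 2-fold higher on the SPF array (background 6.75%). miR-466i-5p was at 0.44, and the lowest was miR-466o-3p at -0.89.

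Some miR-466 members were near the floor. miR-466l, the miRNA described in macrophages, was under it in both arms on both arrays, at -4.14 and -5.68 for miR-466l-5p and -5.08 and 3.45 for miR-466l-3p. miR-466a-5p and miR-466e-5p were also under it on both arrays. The probe of miR-466b-5p and miR-466o-5p passed it in germ-free alone (13.4, then -0.35) and miR-466n-3p in SPF alone (7.02, then 9.67). Just inside the floor on the SPF array was miR-466p-5p, at a net of 11.0 before scaling. No fold is given for a member under the floor on an array.

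The miR-669 family, the largest in the Sfmbt2 intron, was fainter, with medians of 48.0 and 51.2 over its 21 shared probes. Its brightest members were miR-669p-3p at 171 and 134, miR-669c-3p at 163 and 152, the probe of miR-669a-3p and miR-669o-3p at 137 and 124, and miR-669f-5p at 131 and 128. The log2 differences were -0.34 for miR-669p-3p (technical SD 0.13), -0.09 for miR-669c-3p, -0.14 for the miR-669a-3p and miR-669o-3p probe and -0.04 for miR-669f-5p. miR-669f-3p, from the same hairpin as miR-669f-5p, was at 151 and 107, a log2 of -0.50 (technical SD 0.15). The probe of miR-669a-5p and miR-669p-5p was at 81.4 and 51.2, 1.59-fold lower in SPF (log2 -0.67, technical SD 0.29). The highest log2 values of the family were those of faint probes, with miR-669d-3p at 24.6 and 39.6 (log2 0.69, technical SD 0.72), miR-669l-5p at 31.9 and 45.5 (0.51, 0.57) and miR-669l-3p at 22.8 and 32.3 (0.50, 0.79), and none of the 3 exceeded its technical SD. miR-669n, a U and G repeat printed above, was at 58.6 and 54.8. The family median was -0.08, with 14 of 21 below 0 (66.7%, background 57.6%). With local background subtracted the median was 0.16, with values from -0.57 for miR-669l-5p to 1.15 for miR-669d-3p. Under the floor on both arrays were miR-669h-5p, miR-669j and miR-669k-3p. miR-669h-3p (13.2, then 2.88) and miR-669i (10.9, then -0.19) passed it in germ-free alone, and miR-669m-3p in SPF alone (0.73, then 11.1).

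The miR-297 family had 4 probes. miR-297a-5p was at 84.5 and 70.8, a log2 of -0.26, and the probe common to the 3p arms of miR-297a, miR-297b and miR-297c at 66.8 and 78.3, a log2 of 0.23. The technical SD was 0.25 and 0.28, so the former was at about it and the latter within it. miR-297c-5p had a log2 of -0.61 (technical SD 0.93), and miR-297b-5p passed the floor in germ-free alone (11.8, then 6.69).

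The miR-467 family held all 4 members at 2-fold. All 13 of its probes were above the floor on both (background 77.4% of all miRNA probes). On the SPF array 11 of the 13 were lower (84.6%, background 57.6%), with a median log2 of -0.56 (0.28 with local background subtracted). In the 5p arm all 5 probes were lower, with a median of -1.19. This group of 5 was singled out after its values were seen. miR-467e-5p had a net intensity of 80.9 and 22.9, 3.54-fold lower (log2 -1.82, technical SD 0.51), and was the second lowest of all 1471 shared probes. miR-467b-5p was at 127 and 55.6, 2.28-fold lower (log2 -1.19, technical SD 0.23), the value with the smallest error of the 4 at 2-fold. miR-467c-5p was at 72.8 and 34.5, 2.11-fold lower (log2 -1.08, technical SD 0.39). miR-467d-5p was at 28.9 and 11.8, close to the floor, and its log2 of -1.30 has a technical SD of 1.08. miR-467a-5p, which stands for 10 precursors inside Sfmbt2, was at 123 and 83.2, 1.48-fold lower (log2 -0.56, technical SD 0.19).

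For the 3p arm of the same hairpins, 4 of 5 probes were lower on the SPF array, with a median of -0.46. With local background subtracted the 3p median was 0.66, and miR-467d-3p (1.19), miR-467b-3p (0.69) and miR-467a-3p (0.11) turned above 0 while miR-467e-3p stayed below (-0.33). The levels before that subtraction were as follows. miR-467a-3p was at 133 and 87.4 (log2 -0.60), miR-467d-3p at 175 and 128 (-0.46), miR-467b-3p at 105 and 85.9 (-0.28), miR-467e-3p at 47.9 and 33.2 (-0.53) and miR-467c-3p at 90.5 and 101 (0.15). In 4 of the 5 hairpins the 5p value lay under the 3p value, with a median difference of -0.91 over the 5, the exception being miR-467a with -0.56 for 5p and -0.60 for 3p. With local background it did so in 3 of the 5, with a median difference of -0.23. Among the members with no arm named, miR-467h, whose sequence is printed above, was at 37.5 and 22.9 (log2 -0.71, technical SD 0.64), and the A and C repeats miR-467g and miR-467f were at 111 and 79.7 (-0.47) and at 124 and 128 (0.05). The median of the 53 shared members outside the miR-467 5p group was -0.10. As that group holds all 4 members at 2-fold, the absence of others at 2-fold follows from how it was chosen.

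**Figure D2:**
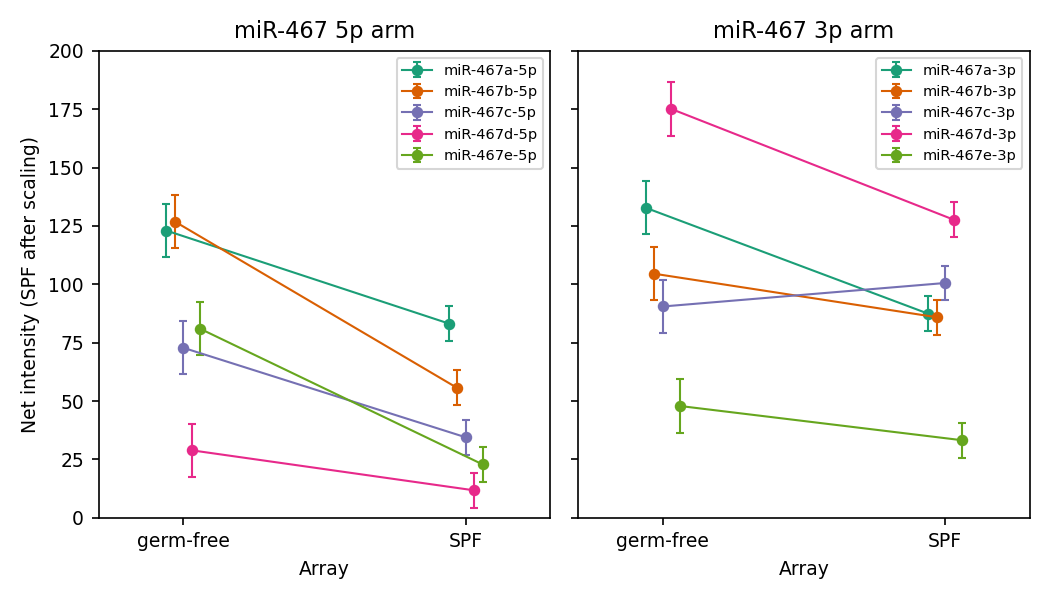
Net intensity of the miR-467 probes of the 5p arm (left) and the 3p arm (right) in the germ-free and, after scaling, SPF sample; error bars are the pooled SD of repeated control spots on each array. All 5 probes of the 5p arm are lower on the SPF array, and in the 3p arm miR-467c-3p is higher.

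The deposited intensities, before any processing, were lower on the SPF array for 4 of the 58 shared members (6.90%) against a background of 7.55% of the shared probes, a share near the background that is no result about the members. For the miR-467 5p probes they were 255.4 and 223.8 for miR-467b-5p, 209.5 and 185.2 for miR-467e-5p, 201.3 and 198.9 for miR-467c-5p, 251.5 and 256.3 for miR-467a-5p and 157.5 and 172.2 for miR-467d-5p. Before processing 3 of the 5 were thus lower on the SPF array and 2 higher.

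The direction of the miR-467 5p difference depended on the background that was subtracted. The local background around these spots was lower on the SPF array for 4 of the 5, at 197.9 and 141.2 for miR-467e-5p, 206.8 and 161.8 for miR-467b-5p, 172.6 and 145.1 for miR-467c-5p and 235.5 and 212.4 for miR-467a-5p, and higher for miR-467d-5p at 129.9 and 161.7. When it was subtracted, the group's median was 0.43, with miR-467e-5p at 1.45 and miR-467a-5p at 0.98, while miR-467b-5p was at -0.12 and miR-467d-5p at -1.87. Over all members 5 were then at least 2-fold higher (background 6.75%) and 1 lower (background 3.55%). Local background made up a median of 80.0% and 74.2% of a member's intensity, against 74.8% and 73.2% over all miRNA probes, and its part in the difference was not tested. With no background subtracted the 5 values ran from -0.47 to -0.15, and no member was at least 2-fold higher (background 0.408%) or lower (background 0.204%). The stricter floor left miR-467b-5p at -1.15 and miR-467a-5p at -0.52, close to their values with the lower floor. It removed miR-467c-5p and miR-467e-5p for their SPF level alone, so the difference itself decided which probes passed. With that floor 1 of 38 members (2.63%) was at least 2-fold lower, against 0.576% of all probes, and none higher, against 1.63%.

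**Figure D3:**
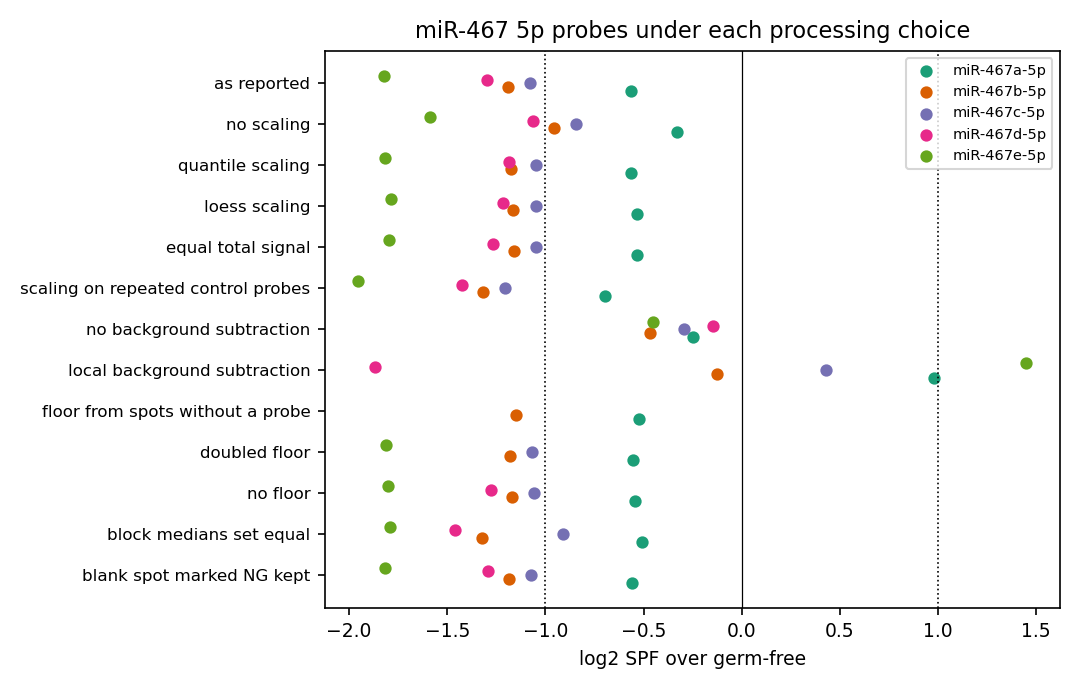
Log2 SPF over germ-free of the 5 miR-467 5p probes (x) under each processing choice (y), 1 point per probe; the solid line is 0, dotted lines are 2-fold, and a missing point is a probe under the floor. Over these settings only local background subtraction puts any of them above 0, with miR-467e-5p at 1.45.

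Both arms of 1 hairpin were compared through the log2 difference of each probe, which needs no comparison of intensities between probes. Of 23 hairpin names with both arms above the floor on both arrays, the 5p value lay under the 3p value in 16, with a median difference of -0.33. Probes that name several miRNAs serve several hairpins here. Without miR-467 it was 12 of 18, with a median difference of -0.09, and with local background 15 of 23 and 12 of 18, with median differences of -0.63 and -0.73. Of the 24 shared 5p members the median log2 was -0.21 with 17 below 0 (70.8%). Of the 24 shared 3p members it was -0.08 with 15 below 0 (62.5%). The background below 0 was 57.6% of all shared probes, to which the 3p share is near. Without the miR-467 5p group the 5p median was -0.10 over 19 probes. With local background subtracted the medians of all 5p and 3p members were 0.15 and 0.36, against -0.04 over all shared probes.

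**Figure D4:**
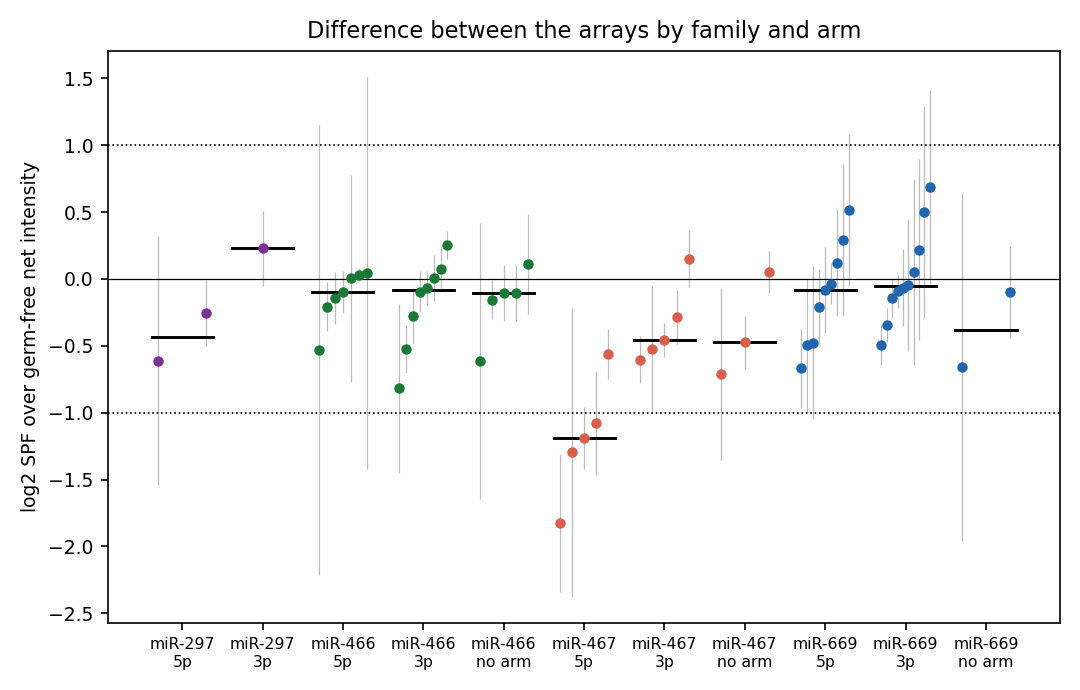
Log2 SPF over germ-free (y) of the shared members by family and arm; points are single probes, grey bars their technical SD and black bars group medians, with dotted lines at 2-fold and the probe naming miR-466m-5p and miR-669m-5p left out. The 5p probes of miR-467 have a median of -1.19, and the medians of the other groups lie between -0.47 and 0.23.

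By name, 56 probes matched precursors inside Sfmbt2 only, 9 precursors elsewhere only and 5 both, while miR-466a-5p matched none. The 44 shared probes of the Sfmbt2 group had a median net of 77.2 and 57.1 and a median log2 of -0.17. They make up 44 of the 58 shared members and include all 4 at least 2-fold lower (background 1.43% of all shared probes). The 9 from elsewhere had a median net of 95.5 and 79.7 and a median log2 of -0.10, with 5 below 0 (55.6%, background 57.6%). With local background subtracted the median log2 was 0.16 in both groups. Among shared probes, 5 matched to 9 or more precursors inside Sfmbt2 had a median net of 132 and 87.4, and 36 matched to 1 had 55.0 and 42.8. As probes bind with different strength, an effect of copy number cannot be read from these medians. With the probe under the SPF floor, 6 match 9 or more precursors, from 13.4 to 137 in the germ-free sample. The highest was the probe of miR-669a-3p and miR-669o-3p with 13 precursors and the lowest that of miR-466b-5p and miR-466o-5p with 9.

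Along the intron, probes of nearby precursors differed in level, which does not rank the miRNAs, as probes bind with different strength. From the first precursor onwards, miR-466m-3p was at 113 and miR-669f-3p, 0.566 kb downstream, at 151 on the germ-free array, whereas miR-669b-3p, at 1.13 kb, was at 27.9. Between 14.6 and 39.1 kb lie tandem copies of miR-467a, miR-466b, miR-466c, miR-669a and miR-669p, whose probes cannot be assigned to 1 copy. At the far end, miR-466h-3p at 48.2 kb was at 185, and the last precursor, Mir669h at 51.5 kb, gave 13.2 for its 3p and 4.04 for its 5p probe. The miR-467 hairpins with a low 5p value were separated by other precursors, with Mir467c at 7.27 kb, Mir467b at 14.6 kb, Mir467e at 39.1 kb and Mir467d at 41.0 kb. Since all members at 2-fold are miR-467 5p probes, no probe of a neighbouring precursor could be at 2-fold. Among the precursors of the families, Mir466o lies directly before Mir467c, and its probe miR-466o-3p was at -0.82 (technical SD 0.63). That was the lowest log2 of the shared members outside the miR-467 5p group. After Mir467c, with Mir466b-1 between, miR-669a-3-3p was at -0.04 (technical SD 0.49). Beside Mir467e, miR-466p-5p was at -0.53 (technical SD 1.68). Near Mir467d, miR-297c-5p was at -0.61 (technical SD 0.93). Beside Mir467b lie precursors whose probes cannot be assigned to 1 copy.

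**Figure D5:**
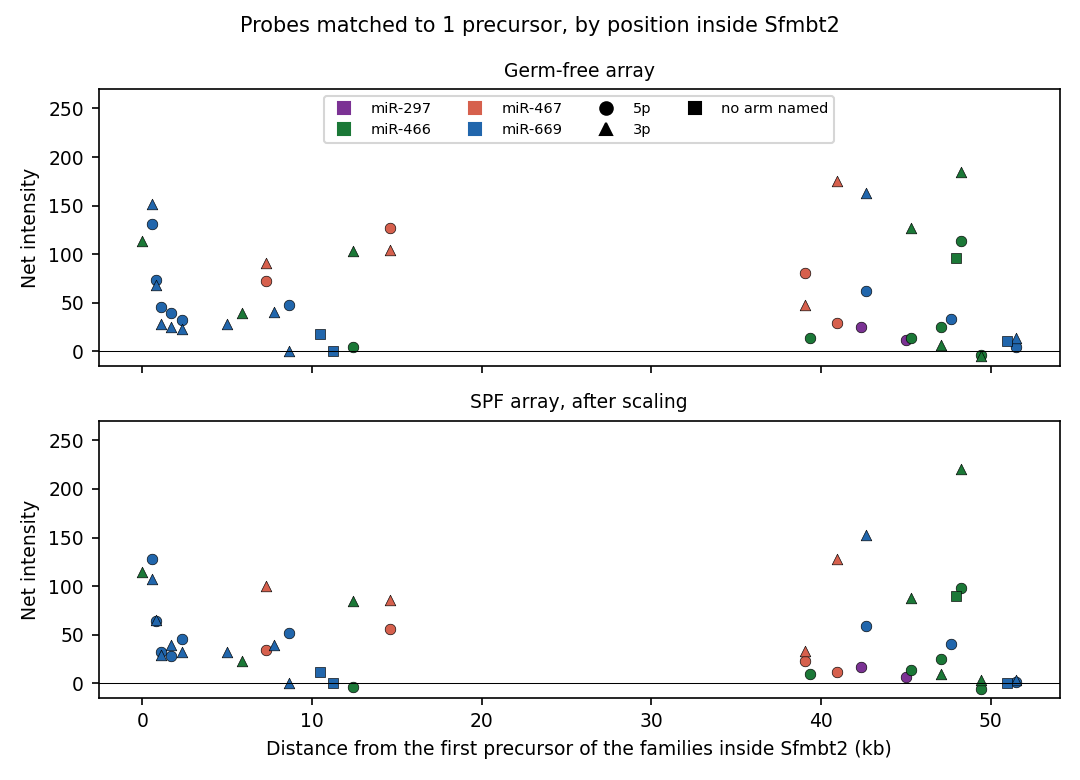
Net intensity on the germ-free array (top) and scaled net intensity on the SPF array (bottom) of probes matched by name to 1 precursor inside Sfmbt2, against the distance in kb from the first precursor; colours are families and symbols arms. Nearby precursors have probes of high and low level, and miR-466h-3p is the highest at 185 and 221.

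Other sets of probes give context, without a test. Outside the families, 9 probes carry a mature strand with GUGUGUG or ACACACA, and 8 were above the floor on both arrays with a median log2 of 0.17 and none at 2-fold. The brightest 4 of them were miR-3097-5p at 180 and 156, miR-574-5p at 154 and 173, miR-1187 at 122 and 126, and miR-3082-5p at 92.3 and 129. They are printed to show the shared repeat.
miR-3097-5p: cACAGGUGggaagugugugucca
miR-574-5p: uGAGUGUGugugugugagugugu
miR-1187: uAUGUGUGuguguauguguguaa
miR-3082-5p: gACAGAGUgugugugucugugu
The 13 shared probes of the miR-290 to miR-295 cluster, another group known from embryonic stem cells, had a median net of 64.6 and 58.0, a median log2 of -0.10 and none at 2-fold. The let-7 family with miR-98, which is abundant in differentiated cells, had a median of 663 and 487 over 18 shared probes and a median log2 of -0.22. Markers of cell types differed between the same arrays. All 8 intestinal epithelium probes were at least 2-fold higher on the SPF array, with a median log2 of 1.31, and all 3 lymphocyte probes were lower, with a median of -0.59. Of the muscle probes 3 of 4 were above the floor with a median of 0.32, and miR-1a-3p was under it on both arrays, while the 3 endothelium and fibroblast probes had a median of 0.01. Of the 3 blood lineage probes 2 were lower, with a median of -0.66. With local background subtracted the medians were 0.78 for epithelium, 1.53 for lymphocytes, 0.45 for blood lineages, -0.15 for muscle and -0.73 for endothelium and fibroblasts, so the sign turned for lymphocytes, blood lineages, muscle and endothelium and fibroblasts. The part of these cell types in the miR-467 values was not tested.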

How the data were processed

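The deposited files hold, per the file headers, for each of 3200 spots the median intensity and that of its local background (635 nm, 3 gains), with no background subtraction or between-array scaling seen in the columns. RNA was labelled with Hy5, per the labels' protocols. No source used here names the array platform, miRBase release or scanner software. From these intensities the net intensity, floor, scaling and log2 SPF over germ-free were computed (Python 3.11.15, pandas 2.3.3, numpy 2.4.6), leaving out 1 blank spot marked NG on the SPF array. The technical SD of a log2 value propagates the pooled SD of repeated control spots. The number of arrays limits the precision. The procedure was tested on simulated data. The additive noise there was the spread of the blank spots (SD 4.53 and, before scaling, 5.33). That is below the pooled SD of the repeated control spots (11.4 and, before scaling, 8.82). Local background was not varied, so the simulation does not bear on that choice. Named members were the brightest and the highest and lowest log2 values, the brightest of each family and arm, and the brightest of those detected on 1 array alone. Members under the floor, probes at the floor's edge, precursor neighbours and arm partners were named besides. The members and lists were chosen with earlier results of these data known. Precursors were matched by name to GENCODE M21, sequences to RefSeq.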

Additional observations from a re-analysis of the deposited data

How the results depend on the processing

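Of 15 alternative settings, 7 were run on the number of members above the floor on both arrays. It was 38 with the stricter floor and within 1.5 times the reported 58 with the other 6. Leaving out background subtraction does not move the floor, so its count of 58 was fixed in advance. Local background could lower the count only where a spot was no brighter than its surroundings, and it gave 58 too. Members at least 2-fold lower were 2 without scaling (0.612% of all shared probes), 0 without background subtraction (0.204%), 1 with local background (3.55%) and 1 with the stricter floor (0.576%). At a fold threshold of 1.5 there were 11 lower (7.61%) and 1 higher (4.62%), and at 3 there was 1 lower (0.204%). Members at least 2-fold higher were 5 with local background (6.75%) and 2 with no floor (3.9%). The median log2 over the members, the 5p members and the 3p members was 0.11, 0.029 and 0.16 without scaling and 0.16, 0.15 and 0.36 with local background, against -0.12, -0.21 and -0.08 as reported. The median of all shared probes was 0.18, -0.04 and, as reported, -0.06, so that leaving out scaling moved members and other probes alike (a difference of -0.06 with and without it), while local background put the members higher than the others by 0.21. The cause of the change with local background was not tested. The median of the miR-467 5p group was 0.43 with local background, where miR-467e-5p was at 1.45 and miR-467c-5p at 0.43, -0.29 without background subtraction, and -0.84 with the stricter floor, which keeps 2 of the 5 probes. The alternatives for this group were added after seeing the data. Signal close to the background limits all members but the brightest. No paired analysis was possible because each group has 1 array.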
